A study of Homo sapiens with 2 samples.

Results

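The genes of the proteasome were examined by mRNA-seq in HCT116 cells, an established line from a human colorectal carcinoma, after knockdown of LAST, a long noncoding RNA induced by c-Myc. There were 2 libraries, 1 from cells infected with lentivirus expressing LAST shRNA and 1 from cells infected with lentivirus expressing control shRNA, both taken 96 hr after infection. Each group was thus 1 culture and the LAST shRNA was a single hairpin, so the differences below were not checked in replicates and carry neither test nor SD. Members were taken by name, as every gene whose symbol begins with PSMA to PSMG followed by a digit, with PSMC3IP, a recombination factor, left out. This gave 45 of the 11420 protein-coding records. PSMB8, PSMA8 and PSMB11 were not analysed here.

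The proteasome degrades proteins that carry ubiquitin chains. Its barrel-shaped core particle is built from alpha rings, which form the gate, and beta rings, which hold the peptide-cutting sites. A regulatory particle sits on the gate. Its base unfolds substrates with a ring of ATPases, and its lid removes ubiquitin. Under interferon, immunoproteasome subunits take the place of the catalytic beta subunits and the activator PA28 is induced, which changes the peptides offered to MHC class I. The transcription factor NFE2L1 raises the genes of the constitutive complex when activity falls short.

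Values are FPKM, fragments mapped to a transcript divided by its length and by the size of the library, so that levels can be compared between genes. Both values were raised by 1 and log2-transformed, and the log2 ratio is the LAST shRNA value less the control shRNA value, a scale that shrinks differences of weak genes. Following the study, ratios from -0.58 downwards were called lower and ratios from 0.58 upwards were called higher. The read depth of the libraries is unknown. Of 11 epithelial and colonic markers, 7 were in the table, with a summed FPKM of 853 with LAST shRNA against 811 with control shRNA. Keratins and EPCAM made up most of this sum, with KRT18 at 294 with LAST shRNA against 271 with control shRNA and EPCAM at 139 and 137. CDX2, a transcription factor of the intestine, was low (1.02 and 1.58), as was CLDN4 (0.349 and 0.508), and CDX1, VIL1, LGALS4 and CLDN3 were not among the records analysed. Of 8 blood cell markers only HLA-DRA (2.87 with LAST shRNA against 0.667 with control shRNA) and CD68 (3.26 and 1.58) were in the table, and of 6 stromal and vessel markers only COL1A1 (1.90 and 1.32). The level of LAST was not analysed here and could not be used to check the labels.

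Most proteasome genes were close in both libraries. The base and the catalytic beta subunits were slightly lower with LAST shRNA, and the immunoproteasome genes slightly higher. The structural beta subunit PSMB1 was lower by more than the catalytic ones (-0.57). The alpha rings and the lid had members on both sides of 0. Of the 45 members 2 were lower past the threshold, PSMA2 and PSME3, and 1 was higher, PSMD5. Over all records 5.88% were lower and 6.8% were higher. The other 42 members lay between the thresholds, and 33 members (73.3%) were within 0.25 of 0, against 64.7% of the 3490 records at a mean FPKM of at least 10. A log2 ratio below 0 was found for 29 of 45 members (64.4%), beside 48.7% of all records and 52.7% of records at a mean FPKM of at least 10. The median was -0.08 over the members, 0.01 over all records and -0.02 over the records at 10 or more. Summed over the 45 members, FPKM was 1540 with LAST shRNA against 1670 with control shRNA (-7.80%).

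**Figure D1:**
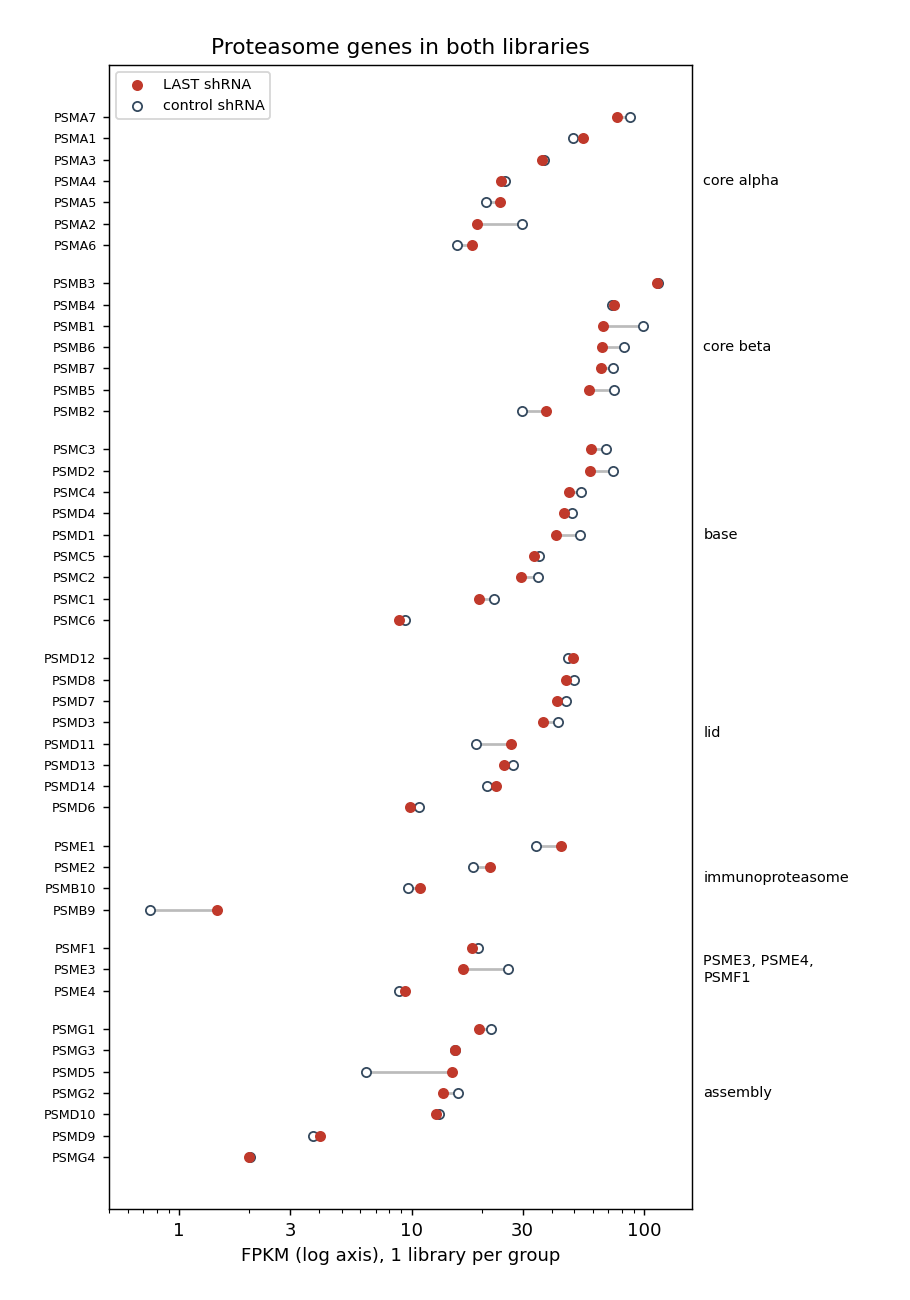
FPKM (log axis) of the 45 proteasome genes with LAST shRNA (filled points) and control shRNA (open points), 1 library each, grouped by part of the complex and ordered by level. All 9 base subunits lay to the left with LAST shRNA, all 4 immunoproteasome genes lay to the right, and PSMD5 (14.9 and 6.34) had the widest gap on the higher side.

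In the alpha rings of the core the members moved both ways. PSMA2 was at 19.0 with LAST shRNA against 29.7 with control shRNA, which made it 1.56-fold lower, with a log2 ratio of -0.62. This was the lowest ratio among the 45 members and the only one past the threshold in the core. PSMA7, the most abundant alpha subunit, was at 76.2 with LAST shRNA against 87.0 with control shRNA (-0.19). PSMA4 was at 24.3 and 25.3 (-0.05), and PSMA3 at 36.2 and 37.1 (-0.03). The remaining 3 alpha subunits were above 0. PSMA1 was at 54.5 with LAST shRNA against 49.7 with control shRNA (0.13), PSMA5 at 24.0 and 20.8 (0.20), and PSMA6 at 18.2 and 15.6 (0.20). The alpha subunits stand in equal numbers in the particle, but their mRNAs ranged from 18.2 to 76.2 with LAST shRNA and from 15.6 to 87.0 with control shRNA. PSMA2 stood below PSMA4 and PSMA5 with LAST shRNA and above both with control shRNA. The median log2 ratio of the 7 alpha subunits was -0.03.

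The beta rings were lower at their catalytic subunits and at the structural subunit PSMB1. PSMB5, which carries the chymotrypsin-like site and is the main target of bortezomib, was at 58.1 with LAST shRNA against 74.5 with control shRNA (-0.36). PSMB6, with the caspase-like site, was at 65.8 and 81.9 (-0.31). PSMB7, with the trypsin-like site, was at 65.1 and 73.6 (-0.17). All 3 catalytic subunits were thus below 0, and their summed FPKM was 189 with LAST shRNA against 230 with control shRNA. PSMB1, a structural subunit, had the lowest ratio of the beta rings, at 66.2 with LAST shRNA against 98.5 with control shRNA (1.49-fold lower, -0.57), just short of the threshold. The other structural subunits differed from it. PSMB3, the most abundant member in both libraries, was at 113 and 115 (-0.02), and PSMB4 was at 73.9 and 73.0 (0.02). PSMB2 was on the other side of 0, at 37.8 with LAST shRNA against 29.8 with control shRNA (0.33). Of the 7 beta subunits 5 were below 0, with a median of -0.17.

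All 9 genes of the base of the regulatory particle were below 0, with ratios between -0.33 and -0.07 and a median of -0.20, and their summed FPKM was 344 with LAST shRNA against 400 with control shRNA (-13.9%). None passed the threshold of 0.58. The lowest were the large scaffold subunits PSMD1, at 41.9 with LAST shRNA against 53.0 with control shRNA (-0.33), and PSMD2, at 58.5 and 73.8 (-0.33). PSMD2 is a docking site for shuttle factors. The 6 ATPases, PSMC1 to PSMC6, which form the unfolding ring, followed. PSMC2 was at 29.5 with LAST shRNA against 35.1 with control shRNA (-0.24). PSMC3 was at 59.3 and 68.3 (-0.20), and PSMC1 at 19.5 and 22.5 (-0.20). All of these were lower by between 1.15-fold and 1.19-fold. PSMC4 was at 47.7 with LAST shRNA against 53.5 with control shRNA (-0.16), PSMC6 at 8.80 and 9.38 (-0.08), and PSMC5 at 33.5 and 35.3 (-0.07). The ubiquitin receptor PSMD4 was at 45.2 and 48.7 (-0.10). Although the ATPases occur once each per ring, PSMC3 mRNA stood far above PSMC6 mRNA in both libraries.

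The lid was nearly level as a sum, at 259 with LAST shRNA against 264 with control shRNA (-1.90%), because its members lay on both sides of 0. Below 0 were PSMD3 (36.9 with LAST shRNA against 42.6 with control shRNA, -0.20), PSMD13 (24.9 and 27.4, -0.13), PSMD7 (42.2 and 46.3, -0.13), PSMD6 (9.82 and 10.7, -0.12) and PSMD8 (46.3 and 50.1, -0.11), all of them structural subunits. PSMD14, the metalloprotease that removes ubiquitin chains from substrates, was at 23.0 with LAST shRNA against 21.2 with control shRNA (0.12). Its inactive partner PSMD7 was thus on the other side of 0. PSMD12 was at 49.3 and 46.9 (0.07). PSMD11, a scaffold subunit whose higher level goes with higher proteasome activity in human embryonic stem cells, was at 26.8 with LAST shRNA against 19.0 with control shRNA (1.41-fold higher, 0.47), the highest ratio in the lid. Over base and lid together 14 of 17 genes were below 0, and over the 31 constitutive subunits of core, base and lid 23 were.

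**Figure D2:**
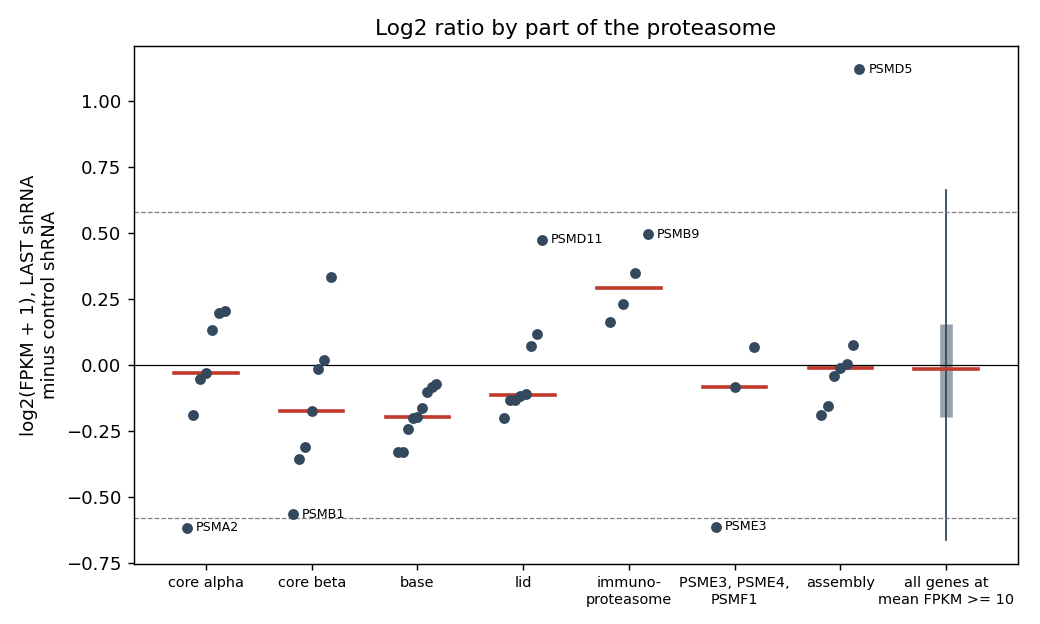
Log2 ratio (LAST shRNA minus control shRNA) of each proteasome gene (points) with the median of its part (red line), beside the median, interquartile range (thick bar) and 5th to 95th percentile (thin line) of all genes at a mean FPKM of at least 10. Dashed lines mark the thresholds of -0.58 and 0.58. The 9 base points are all below 0 and the 4 immunoproteasome points are all above 0.

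The ratios of the members were then read by level. Of the 16 members at a mean FPKM of at least 40, 13 were below 0, with a median of -0.17 and a summed FPKM of 963 with LAST shRNA against 1093 with control shRNA. Of the 706 records of the table at that level, 50.7% were below 0, with a median of -0.01. The 29 members under 40 were more even, with 16 below 0, a median of -0.03 and sums of 576 and 577. The level of 40 was chosen after the values were known. All 16 abundant members belong to the core, the base or the lid, so level and place in the complex partly go together. Under 40, 10 of the 15 core, base and lid genes were below 0 (median -0.07), against 6 of the 14 other members (median 0.04).

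The immunoproteasome genes lay on the other side of 0. All 4 measured genes had a ratio above 0, beside 51.3% of all records, with a median of 0.29, but none passed 0.58. PSMB9 did so with a pseudocount of 0.5 (0.65) or 0.1 (0.88) and with TPM (0.84). These settings widen the ratio of a gene as weak as PSMB9. With a minimum FPKM of 1 in both libraries, which leaves PSMB9 out, the median was 0.23. PSMB9, the interferon-induced replacement of PSMB6, was at 1.46 with LAST shRNA against 0.746 with control shRNA (1.96-fold higher, 0.49). It was the lowest member of all in both libraries. PSMB10, the replacement of PSMB7, was at 10.9 and 9.64 (0.16). PSME1, the alpha subunit of PA28, was at 43.7 with LAST shRNA against 34.1 with control shRNA (0.35), and PSME2, its beta subunit, at 21.7 and 18.4 (0.23). Both PA28 genes lie 4394 bases apart on chromosome 14 (hg19), PSME1 at 24605367 to 24608176 on the plus strand and PSME2 at 24612571 to 24616779 on the minus strand. Summed FPKM of the 4 genes was 77.8 with LAST shRNA against 62.9 with control shRNA (23.8%).

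The mRNAs of PSMB9 and PSMB10 remained minor beside those of the constitutive subunits that they replace. Protein of these subunits was not analysed here. PSMB9 was at 2.22% of the level of PSMB6 with LAST shRNA against 0.910% with control shRNA. PSMB10 was at 16.8% of the level of PSMB7 with LAST shRNA against 13.1% with control shRNA. In both exchanges the numerator was higher and the denominator lower with LAST shRNA. PSMB8, which replaces PSMB5, was not analysed here, so the third exchange cannot be given.

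Genes of antigen processing, many of them induced by interferon, lay mostly above 0. Their list, too, was chosen with earlier results of these data known. Of 19 genes on a list for this pathway 17 were in the table, 16 of them above 0, with 4 called higher (23.5%), 0 called lower and a median of 0.34, beside 51.3% above 0, 6.8% higher and 5.88% lower over all records. TAP1, a subunit of the peptide transporter, was at 9.86 with LAST shRNA against 5.07 with control shRNA (0.84), and TAP2 at 10.8 and 8.58 (0.31). HLA-C (78.8 and 74.6, 0.08), ERAP1 (1.62 and 1.59, 0.01) and the chaperone CALR (235 and 227, 0.05) were near 0, and the chaperone CANX was below it (98.0 and 103, -0.07). B2M, the light chain of MHC class I, was at 33.4 and 12.5 (1.35). The others past the threshold were the interferon signalling factors STAT2 (5.39 with LAST shRNA against 2.88 with control shRNA, 0.72) and IRF9 (4.40 and 0.258, 2.10). The immunoproteasome genes thus had smaller ratios than B2M and IRF9 in the same libraries. The ratio of IRF9 rests on a value of only 0.258 with control shRNA, and B2M has a large exon, as given below. The higher value of every record reached a minimum, which is given with the processing of the data. With control shRNA, IRF9 and NLRC5 (0.783 with LAST shRNA against 0.428 with control shRNA) were under that minimum. Both could therefore be in the table only with a ratio above 0, and they add nothing to the count above 0. IRF9 is also among the 4 called higher. How much of the immunoproteasome difference goes with interferon signalling was not tested. Both libraries came from a cultured cell line rather than from tissue. Of the blood cell markers PTPRC, CD3E, CD74, LYZ, CD14 and ITGAM were not among the records analysed. HLA-DRA and CD68, both at low FPKM, were higher with LAST shRNA, as given above. What these values reflect was not tested. PSMB9 and TAP1 share 8770 bases of their loci on chromosome 6 on opposite strands, and whether counting used strand is not given in the sources used here. PSME2 overlaps RNF31 on the opposite strand by 888 bases (8.66 with LAST shRNA against 5.06 with control shRNA). PSMB10 shares 1516 bases with a weakly expressed record on its own strand, CTC-479C5.12 (1.31 and 0.908).

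**Figure D3:**
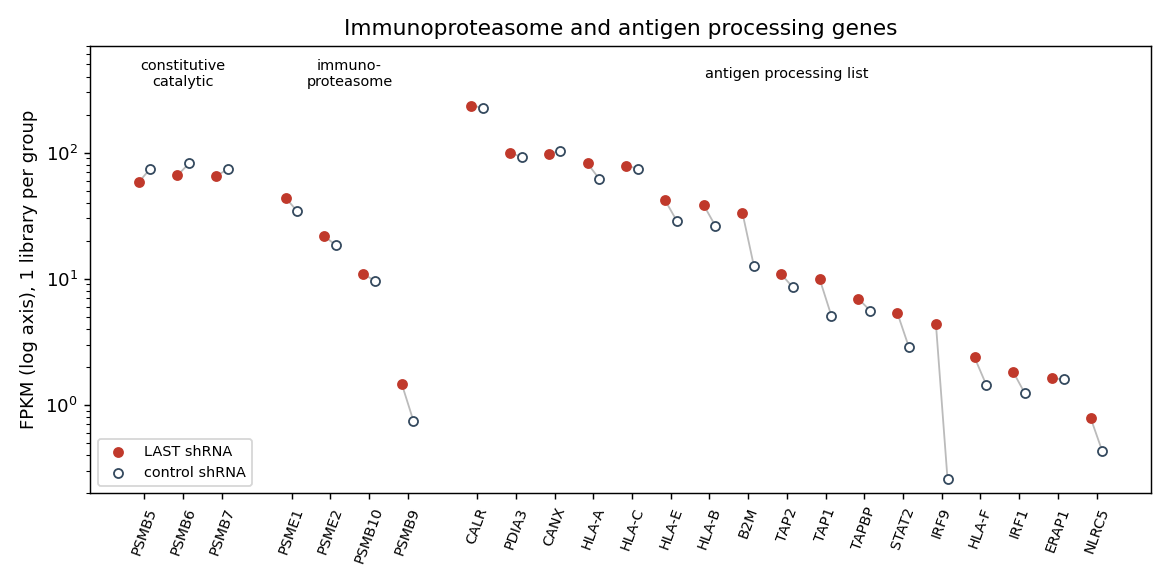
FPKM (log axis) with LAST shRNA (filled, left of each pair) and control shRNA (open, right), 1 library each, of the 3 constitutive catalytic subunits, the 4 immunoproteasome genes and the 17 measured antigen processing genes. The catalytic subunits are lower and the immunoproteasome genes higher with LAST shRNA, and B2M and IRF9 have wider gaps than any immunoproteasome gene.

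The remaining activators and the inhibitor did not move together. PSME3, the nuclear activator PA28 gamma, which promotes degradation without ubiquitin, was at 16.7 with LAST shRNA against 26.1 with control shRNA (1.56-fold lower, -0.61). It thus differed in direction from its relatives PSME1 and PSME2. PSME1 mRNA was at 262% of the level of PSME3 with LAST shRNA and 131% with control shRNA. PSME4, the activator PA200, was at 9.32 and 8.84 (0.07), and PSMF1, which encodes the regulator PI31, at 18.1 and 19.3 (-0.08). PSME3 lies on chromosome 17 from 40976402 to 40995775 (hg19, plus strand) and shares 8966 bases with BECN1 on the opposite strand, which was at 9.39 with LAST shRNA against 8.20 with control shRNA.

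Among the 7 assembly factors PSMD5 was higher and the others lay between -0.19 and 0.08. PSMD5 was at 14.9 with LAST shRNA against 6.34 with control shRNA, 2.35-fold higher, with a log2 ratio of 1.12, the widest difference among the 45 members. The protein, also called S5b, is a chaperone that holds base ATPases during assembly, and it can block the assembly of the complete proteasome when abundant. Its gene lies on chromosome 9 from 123577774 to 123605262 (hg19, minus strand) and overlaps no other record. The other base chaperones were PSMD9, at 4.02 with LAST shRNA against 3.76 with control shRNA (0.08), and PSMD10, also called gankyrin, at 12.7 and 13.1 (-0.04). Neither was near the threshold. Of the core chaperones, which build the alpha ring, PSMG1 was at 19.5 with LAST shRNA against 21.9 with control shRNA (-0.16), and its partner PSMG2 at 13.7 and 15.8 (-0.19). PSMG3 was at 15.4 in both libraries (0.00), and PSMG4 at 1.99 and 2.02 (-0.01). Both chaperone pairs thus stayed together, PSMG1 with PSMG2 slightly below 0 and PSMG3 with PSMG4 at 0.

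The 3 members past the threshold each had a large exon, a feature that is common in the table. In the longest coding transcript (GENCODE release 29) the largest exon held 56.1% of PSMA2, 67.2% of PSME3 and 61.3% of PSMD5. Of the 15 members with a largest exon of 50% or more 3 were past the threshold, and of the 30 with less none was. A largest exon of 50% or more was also found in 6226 of the 11314 records with a match. Of these 6226 records 17.2% were past the threshold and of the rest 7.0%, beside 12.7% in either direction over the whole table. The part of gene structure in the values of PSMA2, PSME3 and PSMD5 was not tested. Among the pathway genes past the threshold, the largest exon held 74.5% of B2M, 66.7% of NFE2L1 and 66.0% of FAF1. It held 59.8% of PITHD1 and 51.2% of UBQLN4, and UBQLN2 has 1 exon. The share was under 50% in IRF9, STAT2, TAP1, UBE3C and NSFL1C. Among the 30 members with a smaller largest exon, 21 were below 0 and the median was -0.11, beside -0.08 over all 45. In this subset the 8 base genes had a median of -0.18, and the alpha subunits, of which 4 remained, had a median of 0.05, on the other side of 0 from that of all 7. All 4 immunoproteasome genes were in it. Reads can also be shared with processed pseudogenes. The annotation names 32 pseudogenes of 12 members, among them 13 of PSMC1 and 3 of PSMA2, so the values of these genes are less certain.

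Promoters were searched for sites of factors known to act on these genes. RefSeq promoters (GRCh38.p14, 250 bases before to 50 after each annotated start) matched 39 of the 45 members by symbol, and PSMA7, PSMB1, PSMB6, PSMB7, PSMD4 and PSMG3 had no entry. The interferon-stimulated response element core, GAAANNGAA on either strand, was in 7 of 39 members (17.9%), beside 8.47% of 8846 genes of the table and 8.11% of 35116 promoters. It is shown for PSMB10, PSME1 and PSME2, whose ratios were above 0 but short of the threshold, and for PSMG4 and PSMC2, whose ratios were below 0, with the matched letters in capitals.
PSMB10 (chr16:67936852-67936881, minus strand): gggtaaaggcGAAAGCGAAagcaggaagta
PSME1 (chr14:24136190-24136219, minus strand): caccgcgaaggGAAAGCGAAagcggtaggg
PSME2 (chr14:24146619-24146648, minus strand): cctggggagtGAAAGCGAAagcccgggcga
PSMG4 (chr6:3258904-3258933, plus strand): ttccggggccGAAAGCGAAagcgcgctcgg
PSMC2 (chr7:103347626-103347655, plus strand): gtggggaaggGAAAGGGAAgacaccaccgg

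The first 4 of these hold the same letters, GAAAGCGAA, which were in 0.531% of the promoters of genes in the table (47 of 8846), a string noted after the sequences had been seen. In PSMB10, PSME1 and PSME2 it went with ratios of 0.16, 0.35 and 0.23, but in PSMG4 with -0.01. The other matches of the 9-letter core were in PSMA4 (-0.05) and PSMB4 (0.02). Matches thus occurred in genes on both sides of 0. PSMB9 had no match in this window.

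The antioxidant response element core, TGACNNNGC on either strand, is the kind of site that NFE2L1 and NFE2L2 bind. It was in 15 of 39 members (38.5%), beside 19.7% of genes of the table and 13.3% of all promoters. None of its matches overlapped one of the interferon core or the E-box. Shown are PSMA4, PSMB3 and PSMD3 from the constitutive complex, PSMB9 from the immunoproteasome, and PSMD5, the member with the highest ratio.
PSMA4 (chr15:78540650-78540679, plus strand): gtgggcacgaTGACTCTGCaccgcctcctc
PSMB3 (chr17:38752627-38752656, plus strand): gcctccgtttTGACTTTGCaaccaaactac
PSMD3 (chr17:39980760-39980789, plus strand): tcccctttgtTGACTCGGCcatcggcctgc
PSMB9 (chr6:32854034-32854063, minus strand): cccgagacaagTGACGAGGCagccccgccc
PSMD5 (chr9:120843037-120843066, minus strand): tggctacagtTGACACGGCcctaacggagg

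Members with this core had no common direction. Of the 15, 8 were below 0, with a median of -0.02, and of the 24 without it 16 were below 0, with a median of -0.08. PSMA4, PSMB3 and PSMD3 had ratios of -0.05, -0.02 and -0.20, whereas PSMB9 and PSMD5 had 0.49 and 1.12. NFE2L1 mRNA was at 12.4 with LAST shRNA against 25.5 with control shRNA (2.05-fold lower, -0.98), one of the mRNAs that the study chose for being lower in this sequencing and bound by the protein CNBP. The study also reported a shorter half-life of NFE2L1 mRNA after LAST knockdown and a longer one with LAST over-expression. It further found less NFE2L1 mRNA after CNBP knockdown. NFE2L2, a relative of NFE2L1, was at 22.7 and 23.0 (-0.02). The E-box CACGTG, a site of MYC, was in 3 of 39 members, PSMB3, PSMD9 and PSME3 (7.69%), beside 13.1% of genes of the table, and their ratios were -0.02, 0.08 and -0.61.

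**Figure D4:**
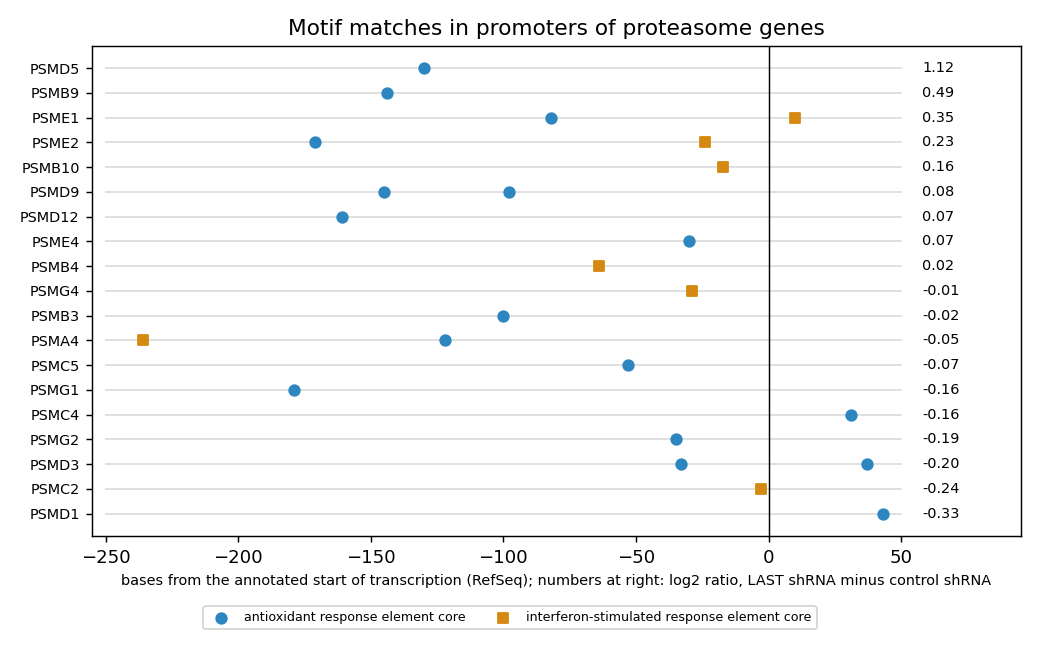
Matches of the antioxidant response element core (circles) and the interferon-stimulated response element core (squares) in the RefSeq promoters of the proteasome genes that hold either, by distance in bases from the annotated start in whose window they lie, with the log2 ratio of each gene at the right. Genes run from the highest ratio (PSMD5, 1.12) to the lowest (PSMD1, -0.33), and circles occur along the whole range.

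Genes that work with the proteasome but carry other names were taken from lists chosen with earlier results of these data known. The shares below describe these lists and are no independent support. Of 12 measured subunits, assembly factors and bound enzymes 2 were called higher (16.7%) and 0 lower, and the median was -0.05, beside 6.8% higher and 5.88% lower over all records. ADRM1, a ubiquitin receptor of the base, was at 58.3 with LAST shRNA against 66.4 with control shRNA (-0.18), on the side of the base subunits. POMP, which matures the core, was at 103 and 99.4 (0.05), and SHFM1, the small lid subunit, at 4.59 and 3.57 (0.29). The deubiquitinases of the base, USP14 (18.9 with LAST shRNA against 20.0 with control shRNA, -0.07) and UCHL5 (8.82 and 9.46, -0.09), lay close to 0. The 2 higher genes were PITHD1, at 22.1 with LAST shRNA against 6.72 with control shRNA (1.58), and UBE3C, a ubiquitin ligase of the proteasome that extends chains on bound substrates, at 24.1 and 14.9 (0.66).

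Shuttle factors, which carry ubiquitinated proteins to the proteasome, and partners of the VCP unfoldase were also examined. Of 19 measured genes 4 were called lower (21.1%) and 0 higher, 13 were below 0 (68.4%), and the median was -0.16, beside 5.88% lower and 48.7% below 0 over all records. Without UBQLN2, which was listed at 0 with LAST shRNA, 3 of 18 were called lower (16.7%) and the median was -0.12. UBQLN4, a ubiquilin, was at 14.0 with LAST shRNA against 27.9 with control shRNA (1.99-fold lower, -0.95). The VCP cofactors NSFL1C and FAF1 were at 7.72 and 12.9 (-0.67) and at 5.03 and 8.27 (-0.62). UBQLN2 was at 8.54 with control shRNA. It is a gene of 1 exon, for which a failed estimate cannot be told from absence, and no fold is given. Its relative UBQLN1 was at 33.0 and 33.9 (-0.04). VCP was at 46.8 with LAST shRNA against 44.1 with control shRNA (0.08). In the list of NFE2L1 and the genes that process or pair with it, 1 of 14 was lower (7.14%) and 0 were higher. This is near the 5.88% lower over all records. The lower gene was NFE2L1 itself, which the study had chosen for being lower in this sequencing. The median of the list was 0.00.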

How the data were processed

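The authors deposited a gene table that its header gives as FPKM, with locus, strand and gene type. According to the submitters' processing notes cutadapt, FastQC, HISAT2 and StringTie were used with hg19. The sources used here give neither versions nor strand use nor how transcripts were combined. In every record the higher value was at least 0.500. Of 991 records between 0 and 1 in both libraries, all 991 had a different ratio, so no steps of whole reads were seen and the depth stays unknown. Libraries were assigned to groups by title.

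Log2 ratios were computed with a pseudocount of 1 and no further scaling. No test could be made with single libraries. All members were named with both values, and other genes came from lists, some genes of which are not reported here and were left out of the counts. Members, lists and motifs were chosen with earlier results of these data known. Genes named on the pathway lists were NFE2L1, POMP, ADRM1, SHFM1, USP14, UCHL5, TAP1, TAP2, B2M and those past 0.58. Others were named after their values were seen. Exon structure (GENCODE release 29, GRCh38) was joined by gene identifier (11314 records, 99.1%). The code for counting was checked on simulated data with added differences far past the threshold. That check says nothing about how the threshold performs in these data. Scripts ran in Python 3.11.15 with pandas 2.3.3, numpy 2.4.6 and, for plots, matplotlib 3.10.9.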

Additional observations from a re-analysis of the deposited data

How the results depend on the processing

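Counts, medians and the ratios of PSMA2, PSME3 and PSMD5 were recomputed with pseudocounts of 0.1 and 0.5, with TPM, with the median ratio of all genes set to 0, with upper quartiles made equal, and, where they apply, with a minimum FPKM of 1 in both libraries, without same-strand overlaps and at thresholds of 1 and 0.3. Omitting members with a largest exon of 50% or more, ratios of summed FPKM, and the shuttle factor count without UBQLN2 were chosen after seeing the data. A median was taken as moved at a shift of 0.1 or more, and a count when it changed by over 1.5 times. Of 111 recomputed values 102 stayed within these limits, and none reversed a called value. This count is no measure of robustness, as the limit of 0.1 is wider than the member median of -0.08. Setting the median ratio to 0 or making upper quartiles equal also changed the ratios little. TPM moved the ratio of PSMB9 from 0.49 to 0.84. The minimum FPKM kept 44 of the 45 members. Within the limits, medians near 0 could change sign. The alpha median was 0.05 without large exons, and the assembly value was 0.07 by summed FPKM. The count of higher members was 2 with either pseudocount and with TPM, as PSMB9 passed 0.58. At a threshold of 1 the count of lower members was 0, and at 0.3 it was 7 lower and 5 higher. Without large exons the assembly median was -0.17, without PSMD5, and that of PSME3, PSME4 and PSMF1 was 0.068, from PSME4 alone. The summed FPKM of those 3 gave -0.30. The count of members below 0 was 30 with a median of 0 and with TPM, and 21 of 30 without large exons. No paired analysis was possible because there was 1 library per group, and no library could be left out. Without replicates and with unknown depth, the size of a difference that chance could give is not known.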

Other observations

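The supply of ubiquitin and its activation were close in both libraries, with 0 of 6 genes past the threshold in either direction and a median log2 ratio of -0.04. UBB, a polyubiquitin gene, was at 163 with LAST shRNA against 171 with control shRNA (-0.07). RPS27A, which encodes ubiquitin fused to a ribosomal protein, was at 156 with LAST shRNA against 145 with control shRNA (0.11). UBA1, the main ubiquitin-activating enzyme, was at 52.2 and 49.1 (0.08). UBA3, which activates the ubiquitin-like protein NEDD8, had the lowest ratio of the list, at 8.84 with LAST shRNA against 13.1 with control shRNA (-0.52), while its partner NAE1 was at 23.5 and 23.7 (-0.01). PSMC3IP, which shares its first letters with the ATPase PSMC3 but is a recombination factor, was at 5.12 with LAST shRNA against 6.80 with control shRNA (-0.35).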
